A study of Homo sapiens with 10 samples.

Results

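Histone-modifying enzymes are the proteins that add chemical groups to histone tails, or take them off again. The genes examined here are the lysine methyltransferases of the KMT, SETD, SUV39H and EHMT families with SETDB1 and DOT1L, the arginine methyltransferases with a PRMT symbol (PRMT1 to PRMT9 without PRMT4, which is listed as CARM1 and was therefore not a member), the subunits of Polycomb repressive complex 2 (EZH1, EZH2, EED, SUZ12 and JARID2), the lysine demethylases (KDM), the lysine acetyltransferases (KAT), the histone deacetylases (HDAC) and the sirtuins. Members were chosen by gene symbol from the deposited expression table, which gave 86 of its 64940 genes. The symbol rule used no measured value, but it was set with earlier results of these data known. The 86 identifiers carry 78 gene symbols, because EHMT2, KAT6B and SIRT2 are also listed under 8 further identifiers, each at 0 in all 4 libraries. Of the members, 77 passed a minimum mean of 1 TPM over the 4 libraries and were tested. PRMT8 was close to 0 in every library and was not tested.

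The expression table covers 4 libraries, 2 of control cells and 2 of oeDAZL cells, all made from H9, a line of human embryonic stem cells (hESCs). In the oeDAZL group, the germ cell RNA-binding protein DAZL was overexpressed by lentivirus, and the labels describe these cells as human primordial germ cell-like cells (hPGCLCs) made from hESCs. The labels give the control cells the genotype wt and call them spontaneously differentiated (SD), whereas the series' design text, like the paper, treats them as PGCLCs. Whether the control cells received the differentiation factors BMP4 and BMP8a and a control virus is therefore not settled, and DAZL and the culture conditions cannot be told apart as sources of a difference. Nothing in the labels says that the replicates of a group came from separate cultures, so P-values measure only the spread between these libraries. The series also holds miRNA libraries of shLacz, shDAZL_4 and shDAZL_6 cells, which were not analysed here.

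Marks on histone tails work in opposing pairs. Methylation of lysine 27 of histone H3 (H3K27) by Polycomb repressive complex 2, or PRC2, accompanies silencing, and the KDM6 demethylases remove it. The KMT2 and SETD1 enzymes methylate H3K4 at promoters and enhancers, and the KDM1 and KDM5 demethylases reverse this, while H3K9 methylation by SUV39H, EHMT and SETDB1 marks heterochromatin. Acetyl groups are added by the KAT enzymes at active genes and removed by deacetylases, which fall into the zinc-dependent HDACs and the NAD-dependent sirtuins. Primordial germ cells are known for a wide rebuilding of these marks, in which PRMT5 with its partner PRDM1 and PRC2 take part.

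The study asked how DAZL acts on miRNAs, the let-7 family among them, and let-7 is therefore the family searched for in these genes. All 9 mature let-7 and miR-98 sequences in RefSeq (GRCh38.p14) share the seed GAGGUAG at bases 2 to 8. Shown 5′ to 3′ with the seed in capitals, 3 of them differ in the first base or outside the seed:
hsa-let-7a-5p: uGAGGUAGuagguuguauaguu
hsa-let-7d-5p: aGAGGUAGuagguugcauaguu
hsa-miR-98-5p: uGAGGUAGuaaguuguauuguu

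The letters CTACCTCA, the complement of that seed followed by A, were searched on the sense strand of the annotated 3′UTR of each canonical transcript. They occur in 4 of the 77 tested members (5.19%) and in 576 of 13110 tested genes with a 3′UTR (4.39%). The 4 members are DOT1L, KMT2D, KMT2E and SETD6. Matches to the seed without the final A were not searched, so other members may also pair over the full seed. The sites, which hold all the letters searched, are shown with up to 14 bases before them, as transcribed and with the match in capitals:
DOT1L: gatttCTACCTCA
KMT2D: ccccgcacccacacCTACCTCA
KMT2E: ttctttagcgactaCTACCTCA
SETD6: gcagataatggtatCTACCTCA

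On hg38 the match lies at chr19:2229798-2229805 on the plus strand for DOT1L, where it begins 6 bases into a 3′UTR of 2786 bases. For KMT2D it lies at chr12:49021099-49021106 on the minus strand, beginning at base 674 of 2802. The KMT2E match is at chr7:105114192-105114199 on the plus strand, at base 859 of 1686, and that of SETD6 at chr16:58521555-58521562 on the plus strand, at base 2526 of 4813. All 4 genes stood lower in oeDAZL at P of at most 0.05, with values given below by role. All stayed negative under median-of-ratios scaling, where SETD6 alone passed. Of all 576 tested genes with such a site, 85 (14.8%) stood lower at that threshold, against 2027 (15.5%) of all 13110 with a 3′UTR. A match describes the letters in this window and is not evidence that a miRNA binds there.

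DAZL itself was at 102 and 101 TPM in the oeDAZL cells and at 0 and 0.0333 TPM in control, as the labels say. The depth of the libraries is unknown, because TPM (transcript abundance scaled for length and to the same total in each library) keeps no read count. Most markers of germ cells were low. DDX4 was listed at 0 throughout, NANOG did not reach 1 TPM, SOX17 stood between 2.52 and 3.35 TPM and NANOS3 between 0.732 and 1.66 TPM. PRDM1 stood between 1.47 and 2.32 TPM and DPPA3 between 0.716 and 2.17 TPM. Higher were TFAP2C at 44.3 to 53.9 TPM, POU5F1 at 10.6 to 22.4 TPM and KIT at 6.23 to 7.70 TPM. The 9 markers summed to between 73.8 and 84.5 TPM, most of it TFAP2C. The mesoderm gene HAND1 stood between 958 and 1250 TPM and the epithelial KRT7 between 567 and 675 TPM, so that the label of germ cell-like cells rests on few of its markers. The sum of 5 mesoderm markers ranged from 1536 to 1559 TPM in control and from 1484 to 1488 TPM in oeDAZL. The 5 amnion and trophoblast markers summed to 938.5 and 950.0 TPM in control and to 979 and 968 TPM in oeDAZL. Among the mesoderm markers HAND1 was higher and COL3A1 and TBXT were lower at P of at most 0.05, with log2 fold changes of 0.32, −1.25 and −0.97. The mesoderm sum thus joins markers that moved in opposite directions, with COL3A1 at a mean of 531 TPM in control and 222 TPM in oeDAZL. Among the other lists, POU5F1 was higher (0.79), and ISL1 (−0.49), CGA (−1.18), PAX6 (−1.30) and AFP (−1.04) were lower. The part of cell composition in the values below was not tested. In such bulk libraries, fewer cells of a type and less RNA per cell cannot be told apart.

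No histone-modifying enzyme changed by 2-fold with DAZL, and the log2 fold changes of the tested members lay between −0.47 and 0.45. In limma's fit across 16687 genes, 0 of the 77 tested members had a fold change of at least 2 with an unadjusted P of at most 0.05 in either direction, against 0.126% of all tested genes higher and 0.563% lower. After Benjamini-Hochberg adjustment 0 members passed 0.05 in limma, against 0.0599% of all genes, while 25 passed an unadjusted P of 0.05. The smallest adjusted p of a member was 0.0898, for HDAC7. Below, P means the unadjusted P of this fit, adjusted p the Benjamini-Hochberg value over all tested genes, and fold changes are on the scale of log2(TPM + 1), oeDAZL minus control, with n = 2 libraries a group.

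At P of at most 0.05 whatever the fold, 3 members were higher (3.90%, background 5.02% of all tested genes) and 22 were lower (28.6%, background 15.2%). Those higher were SETD3, SUZ12 and KDM7A. The groups did not overlap, with oeDAZL above control, for 10 members (13.0%, background 16.0%) and with oeDAZL below control for 39 (50.6%, background 38.4%). The median log2 fold change was −0.13 over the members and −0.08 over all tested genes, and 57 members (74.0%) and 65.3% of all tested genes had a negative value. The size of this split depended on the scaling of the libraries. Under the scalings given next, the share of members lower at P of at most 0.05 stayed above that of all tested genes. With median-of-ratios scaling, which moved the median of all genes to 0.01, 8 members were higher (10.4%, against 11.2% of all tested genes) and 9 lower (11.7%, against 8.19%) at P of at most 0.05, and the members' median was −0.04. Quantile normalization gave 6 higher (7.79%, against 8.40%) and 14 lower (18.2%, against 9.07%) with a median of −0.06. The counts by role given below are to be read against the shares of all tested genes under the deposited scaling, which are 5.02% higher and 15.2% lower at that threshold, and 16.0% above and 38.4% below without overlap.

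**Figure D1:**
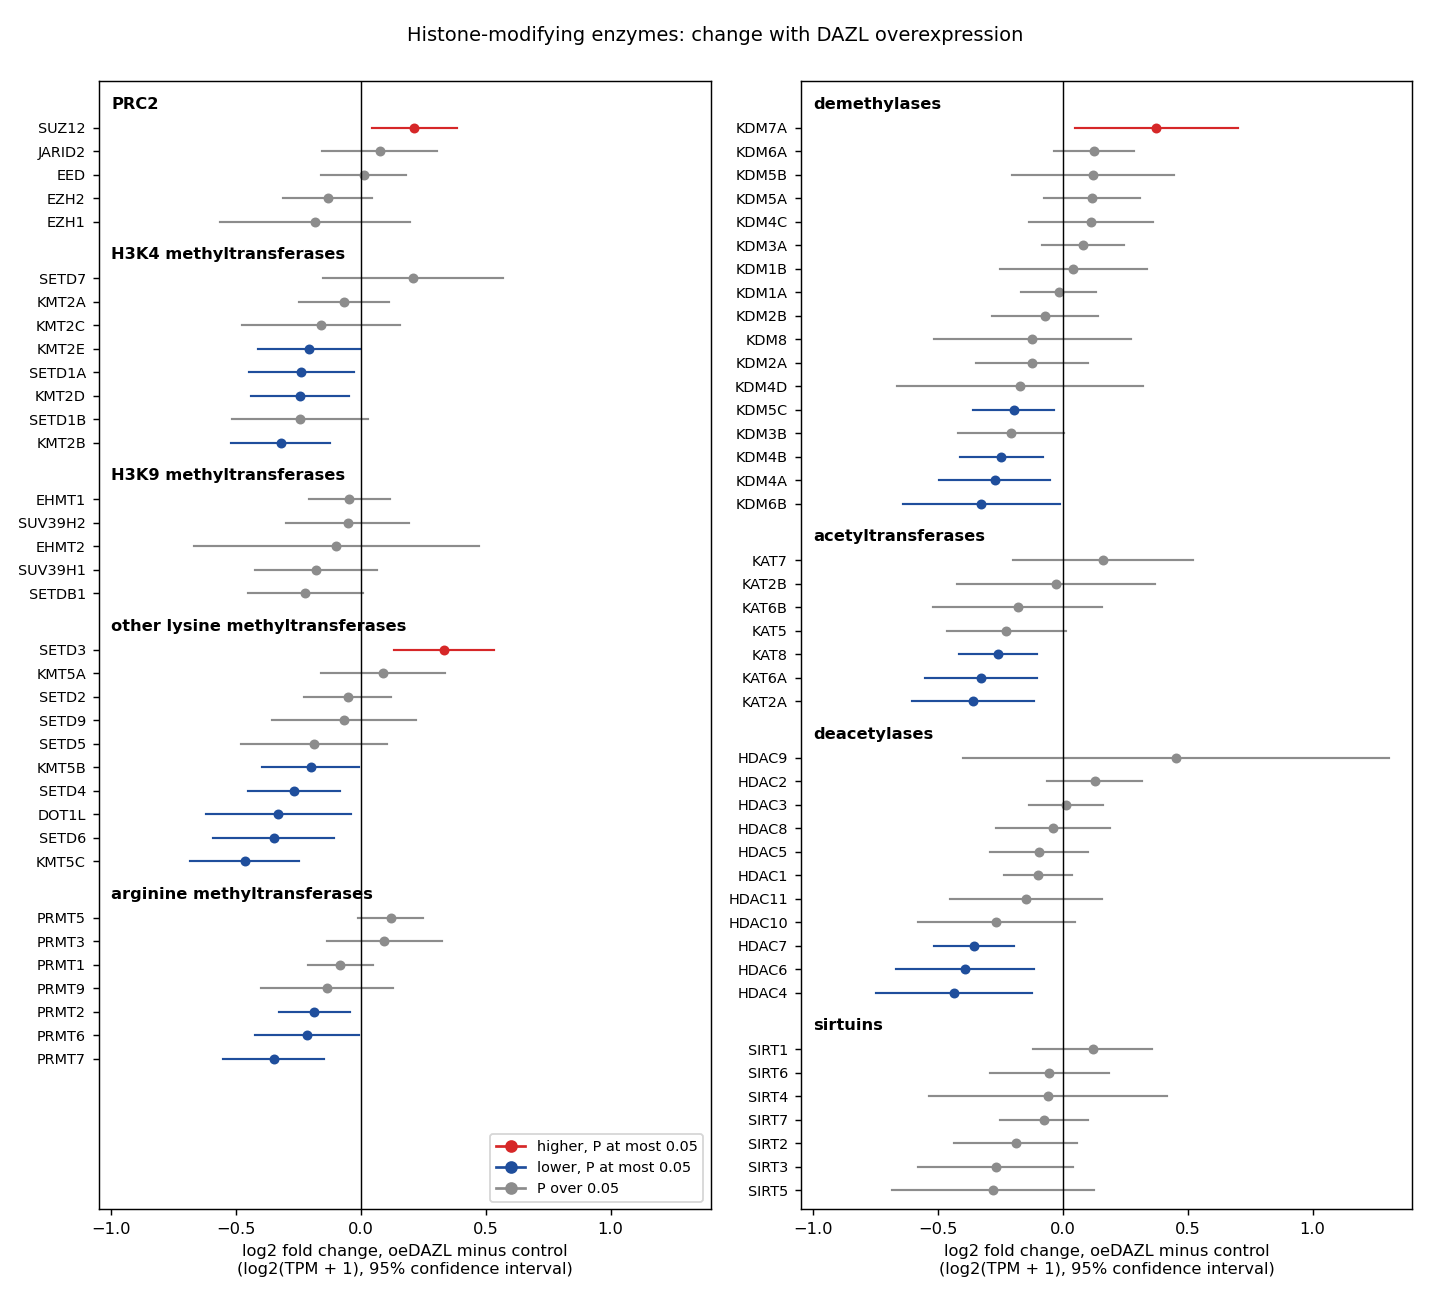
Log2 fold change of each of the 77 tested members, oeDAZL minus control, on the log2(TPM + 1) scale, with its 95% confidence interval from limma's fit (n = 2 libraries a group), grouped by role. The 22 blue members were lower and the 3 red ones higher at P of at most 0.05, and all values lie between −0.47 (KMT5C) and 0.45 (HDAC9).

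Within PRC2, the core subunit SUZ12 stood higher. Of its 5 measured subunits, 1 was higher at P of at most 0.05 (5.02% of all tested genes were) and 0 were lower, with a median of 0.01. SUZ12, a scaffold without which the complex is not stable, was at 31.0 and 31.2 TPM in control and at 36.2 and 36.3 TPM in oeDAZL. Replicates of each group nearly coincided and the groups did not overlap, with a log2 fold change of 0.21 ± 0.07 (SE, adjusted p = 0.184). SUZ12 did not pass P of at most 0.05 without either one of the oeDAZL libraries (0.22 and 0.21). EZH2, the catalytic subunit that deposits H3K27 methylation, was at 47.4 and 51.7 TPM in control and at 45.2 and 44.9 TPM in oeDAZL. Both oeDAZL values of EZH2 were below both control values, but the difference of −0.13 (95% interval −0.31 to 0.04, adjusted p = 0.357) did not pass. It was −0.03 under median-of-ratios scaling, and without control replicate 1 it was −0.19 and passed P of at most 0.05. EED, which reads the mark that PRC2 deposits, was between 35.2 and 36.04 TPM in all 4 libraries. EZH1, the alternative catalytic subunit, varied most, with 32.0 and 23.1 TPM in control and 22.6 and 25.2 TPM in oeDAZL. JARID2, an accessory subunit, ranged from 22.1 to 25.2 TPM. The sum of the 5 subunits was 169 and 163 TPM in control and 165 and 165 TPM in oeDAZL, whereas median-of-ratios scaling gave 160.1 and 160.8 against 171 and 170.02, without overlap. For such sums an exact permutation test of 2 against 2 cannot give a p under 0.3333.

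Of the 8 H3K4 methyltransferases measured, 4 were lower at P of at most 0.05 (15.2% of all tested genes were) and 0 higher, with a median of −0.22, and 6 had both oeDAZL libraries below both control libraries (75.0%, against 38.4%). KMT2B, also known as MLL2 or MLL4, was at 28.0 and 26.6 TPM in control and at 21.9 and 21.5 TPM in oeDAZL. That difference was the largest of the group, at −0.32 ± 0.08 (SE, adjusted p = 0.129). KMT2D, which methylates H3K4 at enhancers and carries a let-7 match, was at 40.5 and 37.0 TPM in control against 33.2 and 31.9 TPM in oeDAZL (−0.24, adjusted p = 0.185), and had the highest mean of the group. KMT2E, a family member with little or no methyltransferase activity of its own and the other with a match, was at 34.1 and 32.5 TPM against 27.3 and 30.1 TPM (−0.21, adjusted p = 0.243). SETD1A, a catalytic subunit of the COMPASS complexes, was at 21.0 and 21.5 TPM against 17.5 and 18.2 TPM (−0.24, adjusted p = 0.210). All 4 had oeDAZL values below both control values, which selection by P favours. SETD1B, its paralogue, had the same size of difference, −0.24, with more spread (adjusted p = 0.284). SETD7, a monomethyltransferase that also acts on other proteins, was at 14.4 and 19.5 TPM in control and at 20.01 and 18.9 TPM in oeDAZL, and its value of 0.21 went to 0.00 without control replicate 1 and to 0.41, past P of at most 0.05, without control replicate 2. The sum over the 8 genes was 206 and 199 TPM in control and 180 and 178 TPM in oeDAZL. Under median-of-ratios scaling the sums stayed apart, at 195 and 195 against 187 and 183, but of the 4 genes only KMT2B still passed, and under the GC and length correction described below none did.

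H3K9 methyltransferases gave no member past the threshold. Of the 5 measured, 5 had a negative log2 fold change under the deposited scaling, as did 65.3% of all tested genes. Under median-of-ratios scaling 3 did, against 47.6% of all tested genes. EHMT1 (GLP), a partner in the heterodimer that makes H3K9 mono- and dimethylation, was at 67.5 and 62.6 TPM in control and at 62.4 and 63.5 TPM in oeDAZL. It was the highest of the group, with a difference of −0.05 (95% interval −0.21 to 0.12). SETDB1, which acts with TRIM28 at retroelements, was at 43.0 and 36.6 TPM against 33.3 and 34.3 TPM (−0.22, adjusted p = 0.260). EHMT2 (G9a), the partner of EHMT1 in that heterodimer, was listed between 2.73 and 4.38 TPM. The gene is uncertain, since 6 further EHMT2 identifiers were listed at 0 and reads that map to more than 1 place had been removed, and the part of shared reads was not tested.

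The remaining lysine methyltransferases held the largest fall and the rise with the smallest P among the tested members. Of the 10 measured, 5 were lower (15.2% of all tested genes were) and 1 was higher (against 5.02%) at P of at most 0.05, with a median of −0.19. KMT5C (SUV420H2, chr19:55339853-55348121, plus strand), which builds up methylation of H4K20 in heterochromatin, was at 39.7 and 35.5 TPM in control and at 28.0 and 25.9 TPM in oeDAZL. Its log2 fold change of −0.47 ± 0.09 (SE, adjusted p = 0.0962) was the most negative of the 77. KMT5B, its paralogue, was at 35.1 and 32.1 TPM against 29.1 and 29.2 TPM (−0.20, adjusted p = 0.238). KMT5A, which adds the first methyl group to the same residue, had a difference of 0.09 and groups that overlapped.

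SETD3 (chr14:99397748-99480889, minus strand), a methyltransferase known for modifying a histidine of actin, was at 56.1 and 63.2 TPM in control and at 78.2 and 72.5 TPM in oeDAZL. Its rise of 0.33 ± 0.08 (SE, adjusted p = 0.124) had the smallest P among members that were higher. DOT1L, the H3K79 methyltransferase with a let-7 match near the start of its 3′UTR, was at 51.2 and 40.0 TPM in control and at 36.04 and 35.5 TPM in oeDAZL (−0.33, adjusted p = 0.210). The control replicates of DOT1L lay far apart, and the value was −0.16 without control replicate 1 and −0.50 without control replicate 2. SETD6, which methylates the RELA subunit of NF-κB and carries the fourth match, was at 30.1 and 26.2 TPM against 21.0 and 22.7 TPM (−0.35, adjusted p = 0.155). Its exons overlap those of CNOT1 on the other strand over 1354 bases, and strandedness is not given in the sources used here, so reads of both genes cannot be told apart there. SETD4 was at 46.0 and 44.7 TPM against 35.9 and 39.2 TPM (−0.27, adjusted p = 0.155). SETD5, the most abundant of the group, was at 178 and 151 TPM in control and at 130 and 160 TPM in oeDAZL, so that the groups overlapped (−0.19, adjusted p = 0.424). The value of SETD5 was −0.04 without oeDAZL replicate 1, and −0.34 and past P of at most 0.05 without oeDAZL replicate 2. SETD2, the enzyme for full methylation of H3K36, ranged from 38.3 to 41.5 TPM.

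Among the 7 tested arginine methyltransferases, 3 were lower at P of at most 0.05 (42.9%, against 15.2% of all tested genes) and 0 were higher. PRMT5, the main symmetric dimethyltransferase, was at 106 and 107 TPM in control and at 115 and 116 TPM in oeDAZL. Both oeDAZL values were above both control values, the replicates of PRMT5 lay within 2 TPM of each other in each group, and the difference was 0.12 (95% interval −0.01 to 0.25, adjusted p = 0.283). It did not pass P of at most 0.05 in this fit. It did in a fit of the same values with no filter on TPM (0.12), under median-of-ratios scaling (0.22) and under quantile normalization (0.13). PRMT5 also passed after rescaling without mitochondrial genes (0.14) and after the GC and length correction described below (0.21). It did not pass with a pseudocount of 0.1, a mean TPM of at least 5 or limma without trend (0.12 each). Nor did it with a replicate block or a crossed pairing, both named below (0.12 each). With a library left out the value of PRMT5 ranged from 0.11 to 0.13. PRMT7, a monomethyltransferase, was at 71.1 and 61.9 TPM in control and at 51.4 and 52.3 TPM in oeDAZL, a difference of −0.35 ± 0.08 (SE, adjusted p = 0.118). PRMT2, a coactivator of nuclear receptors, was at 138 and 130 TPM against 116 and 119 TPM (−0.19, adjusted p = 0.174). PRMT6, which methylates H3R2 and so opposes H3K4 methylation, was at 32.9 and 29.6 TPM against 27.0 and 26.5 TPM (−0.22, adjusted p = 0.235), and its value was −0.14, no longer past P of at most 0.05, without control replicate 1. PRMT1, which makes most of the asymmetric dimethylarginine in cells, was the most abundant of all members, at 315 and 304 TPM in control and 286 and 298 TPM in oeDAZL. Its difference of −0.08 did not pass (adjusted p = 0.431) and was 0.02 under median-of-ratios scaling.

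Demethylases were divided in direction. Of the 17 measured, 1 was higher (5.88%, against 5.02% of all tested genes) and 4 were lower (23.5%, against 15.2%) at P of at most 0.05. With median-of-ratios scaling these counts became 4 (23.5%, against 11.2%) and 0 (against 8.19%), and the group's median went from −0.07 to 0.03. KDM1A (LSD1), which removes mono- and dimethyl groups from H3K4, was the second most abundant of all members and did not differ beyond its spread. It was at 180.0 and 168 TPM in control and at 168 and 176 TPM in oeDAZL, a difference of −0.02 (95% interval −0.17 to 0.13, adjusted p = 0.901). KDM7A, a demethylase of H3K9 and H3K27, was at 5.83 and 5.77 TPM in control and at 7.38 and 8.27 TPM in oeDAZL. The rise of KDM7A was 0.38 ± 0.13 (SE, adjusted p = 0.204), with a low level behind it, and did not pass P of at most 0.05 once any 1 of the 4 libraries was left out (0.30 to 0.45).

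The 2 broadly expressed H3K27 demethylases stood on either side of 0. KDM6A (UTX) was at 42.3 and 41.9 TPM in control and at 46.3 and 45.6 TPM in oeDAZL, without overlap (0.12, adjusted p = 0.344). KDM6B (JMJD3) was at 48.4 and 37.4 TPM in control and at 32.2 and 35.3 TPM in oeDAZL (−0.33, adjusted p = 0.236). Its control replicates were far apart, and its value was −0.14 without control replicate 1 and −0.51 without control replicate 2. The H3K9 and H3K36 demethylases KDM4A and KDM4B were both lower. KDM4A was at 42.5 and 37.2 TPM against 31.7 and 33.8 TPM (−0.27, adjusted p = 0.189), and −0.18, no longer past P of at most 0.05, without control replicate 1. Exons of another gene model on the same strand cover 2086 bases of KDM4A, and reads from there cannot be told apart. KDM4B was at 85.3 and 79.1 TPM against 67.4 and 70.8 TPM (−0.25, adjusted p = 0.148). KDM4C, their paralogue, was at 11.4 and 11.2 TPM against 12.5 and 12.2 TPM (0.11, adjusted p = 0.566). Of the H3K4 demethylases, KDM5C was at 73.5 and 69.0 TPM against 60.6 and 63.5 TPM (−0.20, adjusted p = 0.194). KDM5A stood higher without overlap (0.12, adjusted p = 0.447), and KDM5B overlapped, with control values of 122 and 90.4 TPM.

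**Figure D2:**
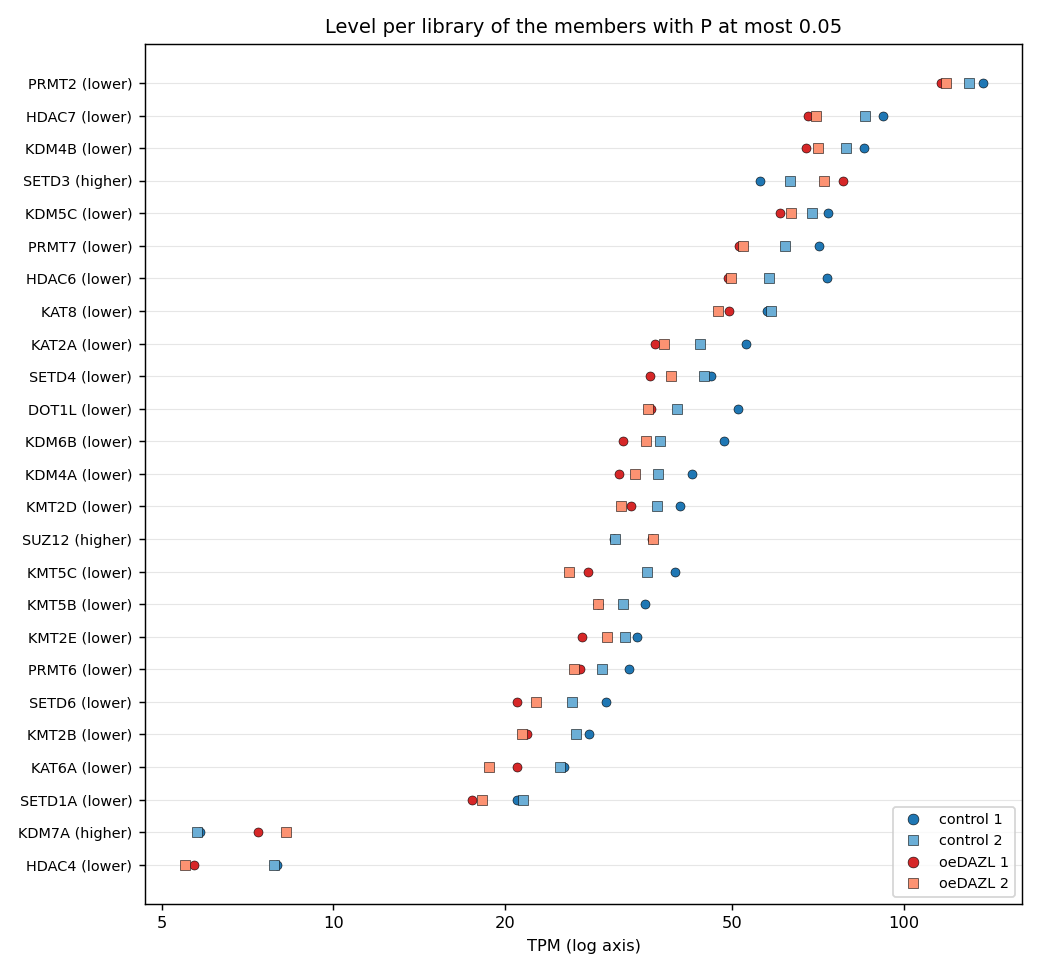
TPM (log axis) in each of the 4 libraries for the 25 members with P of at most 0.05, ordered by mean level, with control libraries in blue and oeDAZL libraries in red. In each of these members the groups do not overlap, which selection by P favours. For DOT1L, HDAC6 and KDM6B control replicate 1 lies well above control replicate 2.

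Acetyltransferases were lower in part. Of the 7 tested, 3 were lower at P of at most 0.05 (42.9%, against 15.2% of all tested genes) and 0 were higher, with a median of −0.23. KAT8 (MOF), the H4K16 acetyltransferase, had the highest mean of the group and was at 57.6 and 58.5 TPM in control and at 49.4 and 47.3 TPM in oeDAZL (−0.26 ± 0.06, SE, adjusted p = 0.127). KAT2A (GCN5), the acetyltransferase of the SAGA complex, was at 52.8 and 44.01 TPM against 36.7 and 38.0 TPM (−0.36 ± 0.10, SE, adjusted p = 0.149). Without control replicate 1 the value of KAT2A was −0.23, still past P of at most 0.05. KAT6A (MOZ), which acetylates H3K23, was at 25.4 and 24.9 TPM against 21.0 and 18.8 TPM (−0.33, adjusted p = 0.152). The oeDAZL values of all 3 genes were below both control values, which selection by P favours. KAT2B (PCAF), the paralogue of KAT2A, showed no such separation, with 8.88 and 8.46 TPM in control and 9.90 and 7.27 TPM in oeDAZL. KAT7 was at 51.3 and 36.9 TPM in control, so that both oeDAZL values lay between its control replicates. The summed level of the 7 genes was 242 and 215 TPM in control and 200.3 and 200.7 TPM in oeDAZL, and the sums stayed apart under median-of-ratios scaling.

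Of the 11 deacetylases, 3 were lower at P of at most 0.05 (27.3%, against 15.2% of all tested genes) and 0 were higher, and those 3 (HDAC4, HDAC6 and HDAC7) belong to class II. Class I holds the nuclear HDAC1, HDAC2, HDAC3 and HDAC8, and 0 of the 4 passed, against 15.2% of all tested genes lower and 5.02% higher. So few genes cannot set the classes apart, and a difference between them was not tested. HDAC1, the most abundant deacetylase, was at 130.3 and 129.6 TPM in control and at 124 and 118 TPM in oeDAZL (−0.10, adjusted p = 0.370). HDAC2, with which it shares the SIN3 and NuRD complexes, was at 115 and 115 TPM against 135 and 117 TPM (0.13, adjusted p = 0.410). HDAC3, of the NCOR complexes, overlapped between groups (0.01, 95% interval −0.13 to 0.16). HDAC7, a class IIa enzyme that moves between nucleus and cytoplasm (chr12:47782722-47833132, minus strand), was at 91.9 and 85.5 TPM in control and at 67.9 and 70.2 TPM in oeDAZL. The difference of −0.36 ± 0.07 (SE, adjusted p = 0.0898) had the smallest P of the 77 tested members. HDAC4, also of class IIa, was at 7.96 and 7.86 TPM against 5.69 and 5.49 TPM (−0.44 ± 0.13, SE, adjusted p = 0.162). After the GC and length correction described below, the value of HDAC4 was −0.29 and did not pass. HDAC6, the cytoplasmic tubulin deacetylase of class IIb, was at 73.4 and 58.0 TPM against 49.3 and 49.8 TPM (−0.39, adjusted p = 0.157). Without control replicate 1 the value of HDAC6 was −0.22, still past P of at most 0.05. The other class II members, HDAC5, HDAC9 and HDAC10, did not pass. HDAC9 had the largest positive value of all members, 0.45, but its control replicates were at 1.59 and 4.27 TPM, and the value was −0.06 without control replicate 1 and 0.97, past P of at most 0.05, without control replicate 2.

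Sirtuins gave 0 members past the threshold in either direction. SIRT7, a nucleolar enzyme and the highest of the 7, was at 36.1 and 36.9 TPM in control and at 33.7 and 35.5 TPM in oeDAZL (−0.08, adjusted p = 0.591). SIRT3 and SIRT5, which act in mitochondria, had differences of −0.27 (95% interval −0.58 to 0.04) and −0.28 (−0.68 to 0.12). SIRT1, the nuclear homologue of yeast Sir2, was at 20.8 and 18.5 TPM against 22.1 and 20.7 TPM (0.12, adjusted p = 0.523). SIRT4 was the lowest at between 2.43 and 3.17 TPM.

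The 25 members with P of at most 0.05 were not equally firm. Under both median-of-ratios scaling and quantile normalization, 9 of the 22 that were lower (HDAC4, HDAC6, HDAC7, KAT2A, KAT6A, KMT2B, KMT5C, PRMT7 and SETD6) and the 3 that were higher kept both their direction and P of at most 0.05. Under each of 14 alternatives, which cover other scalings, filters, blocks, a correction for GC content and length and the removal of each library, 5 lower members (HDAC6, HDAC7, KAT2A, KMT5C and PRMT7) and SETD3 kept both. Among these alternatives the log2 fold change of KMT5C ranged from −0.54 to −0.30, that of HDAC7 from −0.41 to −0.19 and that of SETD3 from 0.25 to 0.43. Without control replicate 1, 14 of the 22 lower and 2 of the 3 higher members still passed P of at most 0.05. These counts were 20 and 2 without control replicate 2, 8 and 1 without oeDAZL replicate 1, and 10 and 1 without oeDAZL replicate 2. All 25 kept their sign in these 4 fits. Exons of 12 of the 25 overlap those of another gene, and for 5 of them (KAT2A, KDM4A, KMT2D, KMT2E and SETD6) a gene on the same strand is among these.

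**Figure D3:**
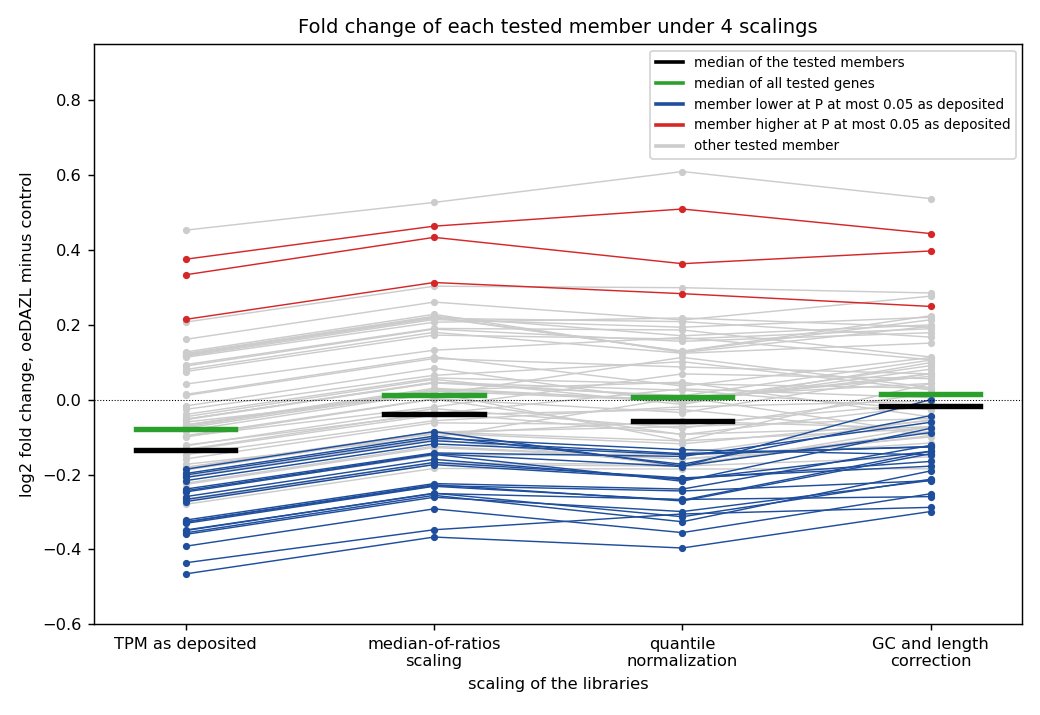
Log2 fold change of each of the 77 tested members, joined by a line, with TPM as deposited, median-of-ratios scaling, quantile normalization and a correction for GC content and length. Black bars mark the median of the members (−0.13, −0.04, −0.06 and −0.02) and green bars that of all tested genes (−0.08, 0.01, 0.01 and 0.02).

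Base composition moved with the fold change. Across the 77 tested members Spearman's rho between the log2 fold change and the GC content of the canonical transcript was −0.597, and across the 16609 tested genes with an annotated transcript it was −0.192. For transcript length rho was 0.0153 over the members. These are descriptions across genes that share the same 4 libraries. The 22 members that were lower had a median GC content of 57.6%, the 3 that were higher 38.3% and the other 52 tested members 49.3%. After GC content and length were regressed out of each library, a step chosen after the values were seen, 7 members were higher (9.09%, against 10.7% of all tested genes) and 7 lower (9.09%, against 7.18%) at P of at most 0.05, and the members' median was −0.02. All 7 of those lower (HDAC6, HDAC7, KAT2A, KMT5C, PRMT7, SETD4 and SETD6) and the 3 higher members were among the 25. KMT2D, at −0.24 before, was at 0.00 after it.

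**Figure D4:**
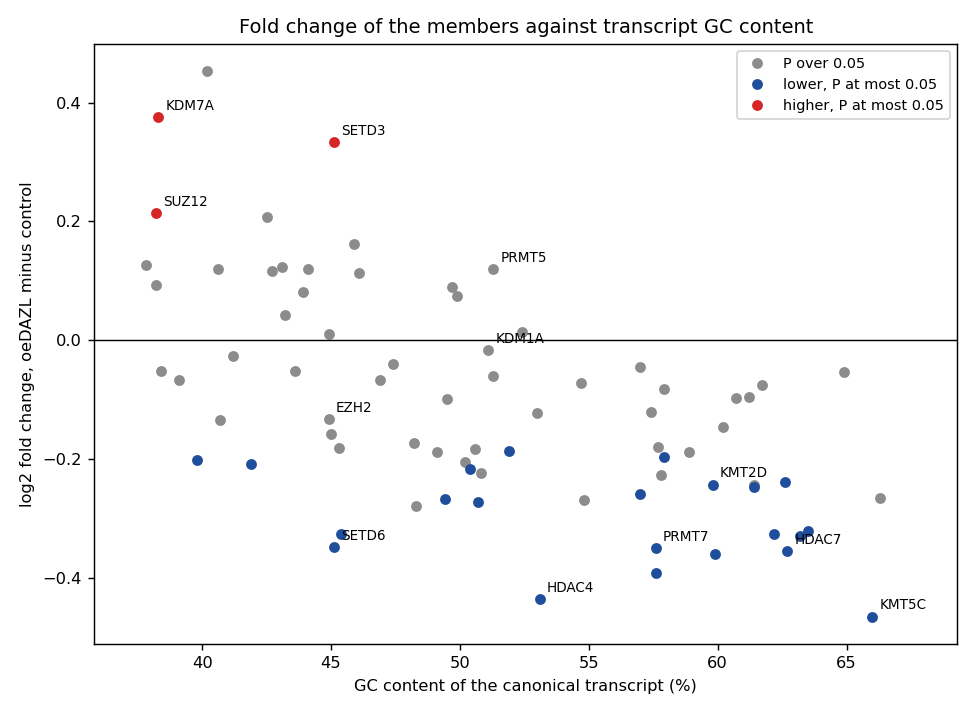
Log2 fold change of the 77 tested members (vertical axis, oeDAZL minus control) against the GC content of the canonical transcript in percent (horizontal axis). The members higher at P of at most 0.05 (red) have a GC content between 38.2% and 45.1%, while those lower (blue) range from 39.8% to 66.0%.

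The control libraries differed more from each other over these genes than the oeDAZL libraries did. The median absolute difference between replicates on the log2 scale was 0.123 over the members in control and 0.0698 in oeDAZL, against 0.142 and 0.101 over all tested genes. Control replicate 1 was the higher of the control pair for 61 of the 77 members (79.2%), and for 58.3% of all tested genes. Without control replicate 1 the members' median log2 fold change was −0.08, with 4 higher (5.19%, against 4.67% of all tested genes) and 15 lower (19.5%, against 10.3%) at P of at most 0.05. Without control replicate 2 it was −0.16, with 4 higher (5.19%, against 8.04%) and 27 lower (35.1%, against 19.7%). In that fit 5 members (6.49%) and 4.03% of all tested genes had an adjusted p of at most 0.05. Summed over all members, the level was 3626 and 3369 TPM in control and 3234 and 3279 TPM in oeDAZL, and with median-of-ratios scaling the sums overlapped, at 3434 and 3316 against 3361 and 3384.

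Under the deposited scaling, other histone-modifying enzymes and partner subunits lay closer than the members to the genes as a whole in lower calls and in median. Of 64 such genes outside the symbol rule 62 were tested. At P of at most 0.05, 5 were higher (8.06%, against 5.02% of all tested genes) and 11 lower (17.7%, against 15.2%), and their median was −0.08, as over all tested genes. None of them changed by 2-fold or had an adjusted p of at most 0.05 in limma, and 16 passed the unadjusted threshold. With median-of-ratios scaling 7 were higher (11.3%, against 11.2%) and 1 was lower (1.61%, against 8.19%). After the GC and length correction 7 were higher (11.3%, against 10.7%) and 0 were lower (against 7.18%). In lower calls the members, at 11.7% and 9.09%, lay nearer to all tested genes under both. The genes that passed are named after their values were seen. The 11 lower ones were NSD2, CARM1, MTA1, CBX5, CREBBP, TRIM28, CBX2, SMYD5, ATF7IP, NAA40 and ING5, with log2 fold changes between −0.37 (CBX2) and −0.17 (TRIM28). CARM1, the arginine methyltransferase also called PRMT4, was at 113 and 102 TPM in control and at 83.8 and 91.4 TPM in oeDAZL (−0.29, adjusted p = 0.136). CREBBP (CBP), a broad histone acetyltransferase, was at 49.96 and 41.5 TPM against 35.1 and 37.7 TPM (−0.32, adjusted p = 0.184). The 5 higher ones were JMJD6 (0.44), CBX3 (0.26), WDR77 (0.26), HAT1 (0.20) and COPRS (0.18). WDR77 (MEP50), which forms the active PRMT5 complex, was at 68.8 and 72.6 TPM in control and at 84.0 and 85.2 TPM in oeDAZL (adjusted p = 0.120). COPRS, which directs PRMT5 to histones, was at 42.3 and 43.3 TPM against 49.1 and 48.3 TPM (adjusted p = 0.208). CLNS1A and RIOK1, which bring substrates to PRMT5, did not pass (−0.06 and −0.03, adjusted p = 0.782 and 0.840). In each of the 16 genes that passed, the groups did not overlap, which selection by P favours and which is no further support.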

How the data were processed

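RNA was sequenced from 2 control and 2 oeDAZL libraries. The authors deposited 1 table of TPM per gene. Per the paper's methods and the submitters' processing notes, reads were trimmed, mapped to hg38 with HISAT2 2.1.0, kept where unique and quantified with StringTie 2.1.4. The annotation release and strandedness are not given in the sources used here. TPM keeps no depth, so precision was taken from the spread between replicates.

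Of 65003 entries, 45 pseudoautosomal copies and 18 repeated identifiers were left out. A mean TPM of at least 1 left 16687 genes, fitted on log2(TPM + 1) with limma 3.58.1 in R 4.3.3 (lmFit, eBayes with trend), without covariates. The thresholds, a fold change of at least 2 and P of at most 0.05, follow the paper. Positions, 3′UTRs, GC content and length were taken from canonical transcripts of GENCODE 44 and miRNAs from RefSeq.

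The members and lists were chosen with earlier results of these data known. Full values were given for EZH2, PRMT5 and KDM1A, members with P of at most 0.05, the 5 largest rises and falls, and the most abundant member of each role. Related genes were to be named at P of at most 0.05 and 1.5-fold, which none met. Alternatives were a pseudocount of 0.1, no filter, a mean TPM of at least 5, 3 other scalings, limma without trend, a replicate block and each library left out. A crossed pairing and the regression on GC content and length were added after seeing the data.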

Additional observations from a re-analysis of the deposited data

How the results depend on the processing

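No alternative gave a member with a 2-fold change at P of at most 0.05. The 3 members higher and 22 lower at P of at most 0.05 became 8 and 9 with median-of-ratios scaling, 6 and 14 with quantile normalization, and 7 and 7 once GC content and length were corrected for. Without limma's trend 13 were lower (16.9%, against 13.9% of all tested genes), and without a filter on TPM 5 were higher (6.41%, against 3.26%). Leaving out 1 library in turn gave 1 to 4 higher and 9 to 27 lower members, lowest without oeDAZL replicate 1 (1 and 9) and with 13 lower without oeDAZL replicate 2. Fewer libraries were used in these fits, and a group with 1 library was assumed to vary like the other. Members above without overlap were 10 as deposited (16.0% of all tested genes), 21 with median-of-ratios scaling (29.2%) and 23 with the correction (29.0%). With a library left out they were 14 to 19, against 24.3% to 27.2% of all tested genes. They were 19 without control replicate 1 and 16 without control replicate 2 (27.2% of all tested genes in each). Members below were 39 as deposited (38.4% of all tested genes), 25 with median-of-ratios scaling (24.6%) and 20 with the correction (23.0%). With a library left out they were 42 to 55, against 48.9% to 55.6%. The shares of all tested genes thus moved in the same directions. The members' median log2 fold change was −0.13 as deposited and −0.016 with the correction. It was −0.038 with median-of-ratios scaling, −0.058 after quantile normalization and −0.16 to −0.08 with a library left out. With the replicate block 1 was higher (SETD3, 1.30%, against 4.02% of all tested genes) and 17 were lower (22.1%, against 12.6%). The numbers share no stated origin. The deviations of same-numbered libraries were negatively correlated, with r = −0.104 over all tested genes and −0.34 over the members. A crossed pairing gave 3 higher (3.90%, against 6.35% of all tested genes) and 28 lower members (36.4%, against 17.7%) at P of at most 0.05. In that limma fit 6 members (7.79%) and 6.53% of all tested genes had an adjusted p of at most 0.05.

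Signs turned only for values that had not passed, apart from KMT2D. The turns listed here are those of members given full values. Over all 77 tested members, 57 values were negative as deposited, 42 with median-of-ratios scaling and 41 with the GC and length correction. With median-of-ratios scaling EHMT1 was 0.054, HDAC1 0.0012, KDM1A 0.084, PRMT1 0.018 and SIRT7 0.023. With the correction EHMT1 was 0.099, KDM1A 0.081, PRMT1 0.043, SIRT7 0.069 and KMT2D 0.00015. KDM1A was 0.00029 without mitochondrial genes. With a library left out the values ranged from −0.099 to 0.0080 for EHMT1, from −0.059 to 0.97 for HDAC9, from −0.066 to 0.032 for KDM1A and from −0.00035 to 0.41 for SETD7. The cause was not tested. Read depth is unknown, and with n = 2 a group small differences were not detectable beyond the spread.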
